A study of Mus musculus with 4 samples.

Results

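The results describe 6 genes that code for Wnt ligands and secreted proteins that act on Wnt signals: Wnt5a, Wnt11, Sfrp1, Sfrp2, Frzb and Dkk3. They were taken by gene symbol from the 32287 genes listed in the 4 count matrices, and each symbol matched 1 gene. The 4 libraries hold single aortic smooth muscle cells, sorted as viable and GFP-positive, from the ascending aorta and arch of C57BL/6J mice at 12 weeks of age. The 2 control libraries (WT) came from mice labelled GFPiSMC, of genotype Myh11-CreERT2.mT/mG. The 2 knockout libraries (KO) came from mice labelled Tgfbr1/2iSMCKO, which also carried Tgfbr1f/f and Tgfbr2f/f, floxed genes of both TGF-beta receptors. Both genotypes thus share a Cre recombinase that tamoxifen activates under the smooth muscle promoter of Myh11, and the mT/mG reporter, which switches from tdTomato to GFP on recombination. Both genotypes received tamoxifen for 5 days, at 1 or 2 mg per day starting at 4 or 11 weeks of age, and the course of each library is not labelled. The labels tell of individual aortic segments without giving the number of mice in a library, so p-values measure the spread between these samples. The series title asks how TGF-beta protects the adult aorta from dissection under hypertension through matrix production.

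Wnt proteins are secreted, lipid-modified ligands that bind Frizzled receptors. In one branch, with the co-receptors Lrp5 and Lrp6, they stabilise beta-catenin, which acts on genes together with the TCF and LEF factors. Wnt5a and Wnt11 are best known for the other branch, which works without beta-catenin through receptors such as Ror2 and steers cell polarity and movement. The secreted Frizzled-related proteins, here Sfrp1, Sfrp2 and Frzb, carry a Frizzled-like domain and can bind Wnts outside the cell. Dkk3 is a divergent relative of the Dickkopf inhibitors and is produced by arterial smooth muscle.

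Depth was 35255748 and 49723949 UMIs (unique molecules counted) over 2429 and 3265 kept cells of WT 1 and WT 2, and 59203071 and 50605349 UMIs over 4252 and 3522 cells of KO 1 and KO 2. The sum of 8 smooth muscle markers ranged from 45403 to 51209 counts-per-million (CPM) across the libraries. Markers of lymphocytes, mesothelium and adipocytes summed to under 1 CPM in each library. Macrophage markers summed to 1.69 to 11.5 CPM, with the highest value in KO 1, Schwann cell markers to 2.53 to 4.50 CPM and endothelial markers to 29.4 to 35.0 CPM. Cardiac muscle markers summed to 67.6 and 77.2 CPM in WT and to 63.8 and 57.9 CPM in KO. A list of 12 fibroblast genes, several of which these smooth muscle cells express, summed to 715 and 800 CPM in WT, against 455 and 520 CPM in KO. A narrower list of 7 of them, chosen after the values were seen, went the other way, with 9.57 and 11.4 CPM in WT, against 14.8 and 20.2 CPM in KO. At most 5 cell barcodes were shared by any pair of libraries. Tgfbr1 stood at 80.8 and 82.3 CPM in WT, against 73.3 and 76.1 CPM in KO (log2 difference −0.13, adjusted p = 0.203), and the difference for Tgfbr2 was −0.04 (adjusted p = 0.752). Tags from the 3′ end of a transcript need not cover the deleted part of these genes, so they do not check the labels. The unrecombined reporter tdTomato stood at 0.0287 and 0.142 CPM in WT, against 9.97 and 6.75 CPM in KO, and its part in the results was not tested.

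By the annotation on build GRCm38, all 6 genes are protein-coding. Wnt5a lies at chr14:28504750-28527448 and Wnt11 at chr7:98835112-98855195. Sfrp1 lies at chr8:23411502-23449632, Sfrp2 at chr3:83766321-83774316 and Frzb at chr2:80411970-80447625. Dkk3 lies at chr7:112116017-112159057.

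As tags per transcript counted at the 3′ end, with no length term, Sfrp2 and Dkk3 were the most counted members in each library. Frzb, Sfrp1 and Wnt5a followed between 8.20 and 17.6 CPM, with overlapping ranges, and Wnt11 came last. In KO against WT, Wnt5a and Sfrp1 rose and Dkk3 fell, while Sfrp2 and Frzb did not pass the test. Thus 3 of the 5 members that could be tested were called, where 20.3% of the 14474 tested genes were called, 1327 (9.17%) higher and 1611 (11.1%) lower.

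**Figure D1:**
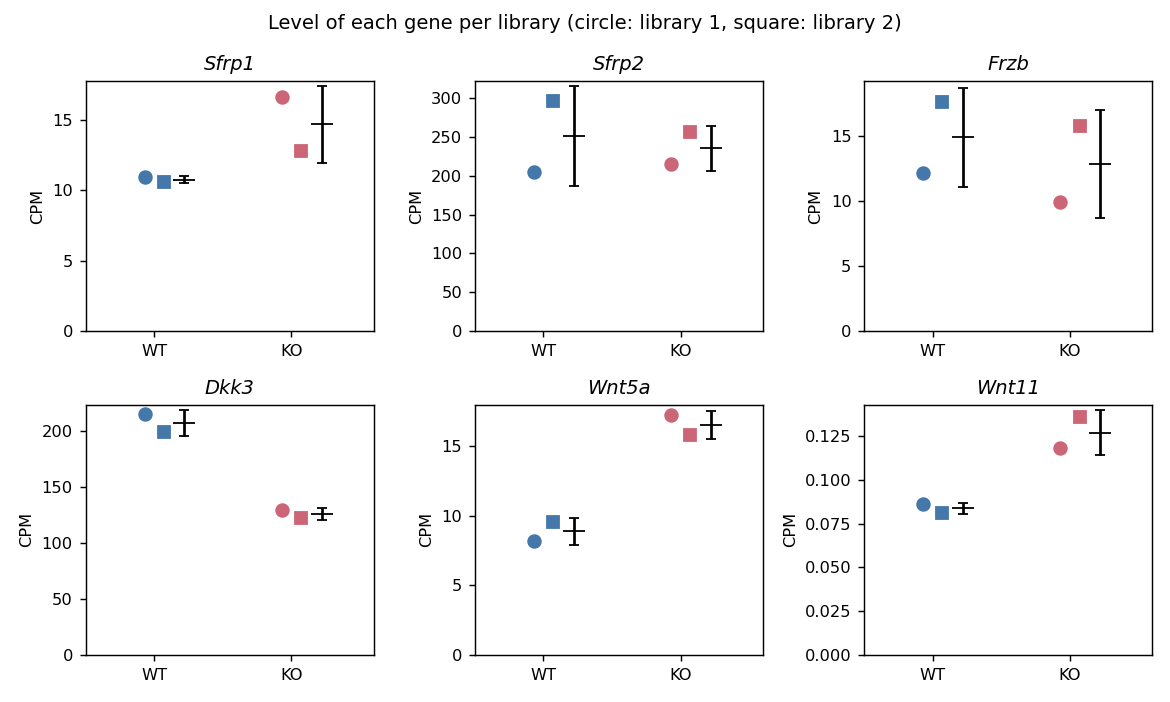
CPM of each member (vertical axes, from 0) in the 4 libraries, with 1 point per library (circle for library 1, square for library 2) and, in black, the mean ± SD of each genotype. The KO points of Dkk3 lie below both WT points and those of Wnt5a above them, whereas the points of Sfrp2 and Frzb overlap between genotypes.

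Wnt5a, the more abundant of the Wnt ligand pair, stood at 8.20 and 9.57 CPM in WT and at 17.2 and 15.8 CPM in KO. Both KO libraries lay above both WT libraries. The log2 difference was 0.89 (SE 0.11), with an adjusted p of 0.00102. It held in each alternative run, with values from 0.78 to 1.08. The gain was also visible in the share of cells: at a common depth of 5000 UMIs per cell, 3.81% and 4.83% of WT cells and 8.48% and 7.84% of KO cells held a Wnt5a UMI. No cell held more than 5 Wnt5a UMIs at that depth, and the variance of the per-cell count was 1.07 to 1.17 times its mean. Few cells were thus rich in Wnt5a in either genotype.

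Wnt11, the second ligand, gave 3 and 4 UMIs in the WT libraries and 7 and 7 in the KO libraries, or 0.086 and 0.081 CPM against 0.118 and 0.136 CPM. It did not reach the expression filter, and without that filter its log2 difference was 0.59 (adjusted p = 0.713). After thinning to 5000 UMIs it was seen in 2 and 1 WT cells and in 0 and 3 KO cells. The 0 among 4102 cells of KO 1 allows a share of cells with a UMI of up to 0.0731%. A genotype difference of Wnt11 was not detectable at this depth.

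Dkk3 stood at 215 and 199 CPM in WT and at 130 and 122 CPM in KO, with no overlap. Its log2 difference was −0.72 (SE 0.07, adjusted p = 0.000360), and the alternatives gave −0.77 to −0.62. Dkk3 was found in many cells: 60.8% and 57.7% of WT cells held a UMI at the common depth, against 45.0% and 44.2% of KO cells. Its per-cell counts were the most even of the abundant members, with a variance of 1.17 to 1.37 times the mean. The richest 10% of cells held 34.6% and 34.9% of Dkk3 UMIs in WT and 39.0% and 40.5% in KO.

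Sfrp1 stood at 10.9 and 10.6 CPM in WT and at 16.6 and 12.7 CPM in KO. The groups did not overlap, but the KO libraries lay further apart than the WT libraries. The log2 difference was 0.45 (SE 0.13), just past the threshold with an adjusted p of 0.0450. It missed the threshold without WT 1 (adjusted p = 0.097), without WT 2 (0.122), without KO 1 (0.226), without the 5% of cells with most UMIs (0.0971) and without cells that held 2 of the 7 fibroblast genes (0.0528). Sfrp1 also had a few very rich cells, a group chosen after its values were seen: 0 and 1 cells in WT and 10 and 2 cells in KO held at least 5 UMIs at the common depth. Those 10 cells of KO 1 held 18.0% of that library's Sfrp1 UMIs, and 2 of them also held 2 of the 7 fibroblast genes. Leaving out cells with 2 of the 12 fibroblast genes removed 1898 and 2591 cells of WT plus 2484 and 2164 of KO and turned the Sfrp1 difference to −0.35 (adjusted p = 0.129). The share of cells with a Sfrp1 UMI was 4.39% and 4.51% in WT and 6.36% and 5.64% in KO.

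Sfrp2 stood at 205 and 296 CPM in WT and at 215 and 256 CPM in KO. The libraries of each genotype differed by more than the genotypes did, and the ranges overlapped. The log2 difference was −0.09 (SE 0.16, adjusted p = 0.717), with a 95% interval from −0.46 to 0.27. Its sign turned without WT 2 or KO 1, and in the minority of cells left by the 12-gene fibroblast filter the difference was 0.68 (adjusted p = 8.5e-05). Sfrp2 was the most unevenly spread of the abundant members. The variance of its per-cell count was 5.85 and 7.41 times the mean in WT and 4.61 and 6.01 times the mean in KO. The richest 10% of cells held 63.5% and 61.9% of Sfrp2 UMIs in WT and 54.1% and 56.1% in KO. A UMI of Sfrp2 was found in 35.8% and 43.8% of WT cells and in 44.5% and 46.2% of KO cells. The share of positive cells was thus higher in both KO libraries while the summed level was not. WT 2 and KO 1 lay close together, however. The difference of KO minus WT was 5.57 percentage points and fell to 1.57 without WT 1.

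Frzb, also called sFRP3, stood at 12.2 and 17.6 CPM in WT and at 9.95 and 15.8 CPM in KO. Again the libraries numbered 1 lay below those numbered 2 in both genotypes. The log2 difference was −0.23 (SE 0.23, adjusted p = 0.522), with a 95% interval from −0.75 to 0.30, and its sign too turned without WT 2 or KO 1. A Frzb UMI was found in 4.79% and 7.80% of WT cells and in 4.07% and 6.83% of KO cells. Rgs5 showed the same order, with 225 and 344 CPM in WT, against 110 and 256 CPM in KO.

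With 2 libraries in each genotype, the exact two-sided permutation test of the detection shares cannot go below p = 0.33. This exact test gave that p for Sfrp1, Sfrp2, Dkk3 and Wnt5a, whose shares did not overlap between genotypes, and 0.667 for Frzb and Wnt11. The sort left too few cells of other types to serve as a background. As a measure of stray RNA, the leukocyte gene Ptprc was seen in 0, 0, 1 and 0 cells and the endothelial gene Cdh5 in 0, 0, 6 and 5 cells at the same depth. Intervals and limits from counts cover counting error only.

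The cells were next divided by Rgs5, a regulator of G-protein signalling that is widely used as a marker of pericytes and is also made by some arterial smooth muscle cells. Cells with at least 2 Rgs5 UMIs at the common depth were called Rgs5-high, a range of 1 gene's count and not a cell type. They numbered 347 and 591 cells in WT, or 15.5% and 19.0%, and 450 and 632 cells in KO, or 11.0% and 18.8%. Just inside the limit, 100 and 137 cells of WT and 161 and 167 cells of KO held 2 Rgs5 UMIs, and just outside it 204, 326, 414 and 361 cells, in the same order, held 1. Rgs5, which the division used, stood at 1206 and 1603 CPM in the Rgs5-high cells of WT and at 757 and 1179 CPM in those of KO.

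In Rgs5-high cells Frzb, Sfrp2 and Wnt5a rose, Sfrp1 fell, and Dkk3 did not pass the test. These 4 of 5 tested members compare with 23.1% of 13088 tested genes called between the classes, 1396 (10.7%) higher and 1622 (12.4%) lower. The test compared both sums of each library within that library.

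Frzb stood at 30.5 and 54.5 CPM in Rgs5-high cells of WT against 8.93 and 9.23 CPM in the other cells. In KO it stood at 44.8 and 52.7 CPM against 5.99 and 7.74 CPM. The classes were far apart in every library, with a log2 difference of 2.54 (SE 0.13, adjusted p = 5.27e-08). A Frzb UMI was found in 12.7% to 22.8% of Rgs5-high cells and in 2.79% to 4.26% of the others.

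Sfrp2 stood at 546 and 824 CPM in Rgs5-high cells of WT against 143 and 176 CPM in the others. In KO it stood at 398 and 563 CPM against 201 and 195 CPM. Each library showed the higher level in Rgs5-high cells, with a log2 difference over all 4 libraries of 1.67 (SE 0.14, adjusted p = 3.24e-06).

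Wnt5a stood at 16.4 and 18.7 CPM in Rgs5-high cells of WT against 6.68 and 7.63 CPM in the others, and in KO at 28.3 and 29.7 CPM against 16.5 and 13.3 CPM. Its log2 difference was 1.10 (SE 0.09, adjusted p = 3.07e-06). The other cells of KO 1 thus stood about level with the Rgs5-high cells of WT 1, whereas those of KO 2 lay below both WT values. No test compared these groups.

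Sfrp1 went the other way, with 2.85 and 4.43 CPM in Rgs5-high cells of WT against 12.9 and 12.4 CPM in the others, and 6.33 and 4.18 CPM against 18.5 and 15.5 CPM in KO. Its log2 difference was −1.72 (SE 0.12, adjusted p = 5.2e-07). Dkk3 stood at 231 and 197 CPM against 218 and 206 CPM in WT, and at 146 and 136 CPM against 133 and 125 CPM in KO. Its difference of 0.07 had a 95% interval from −0.03 to 0.16 (adjusted p = 0.334). Wnt11 gave 1, 3, 2 and 2 UMIs in the Rgs5-high cells, in the order WT 1, WT 2, KO 1, KO 2, against 2, 1, 5 and 5 in the others. It did not reach the expression filter here either, and without that filter its log2 difference was 1.62 (adjusted p = 0.33).

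**Figure D2:**
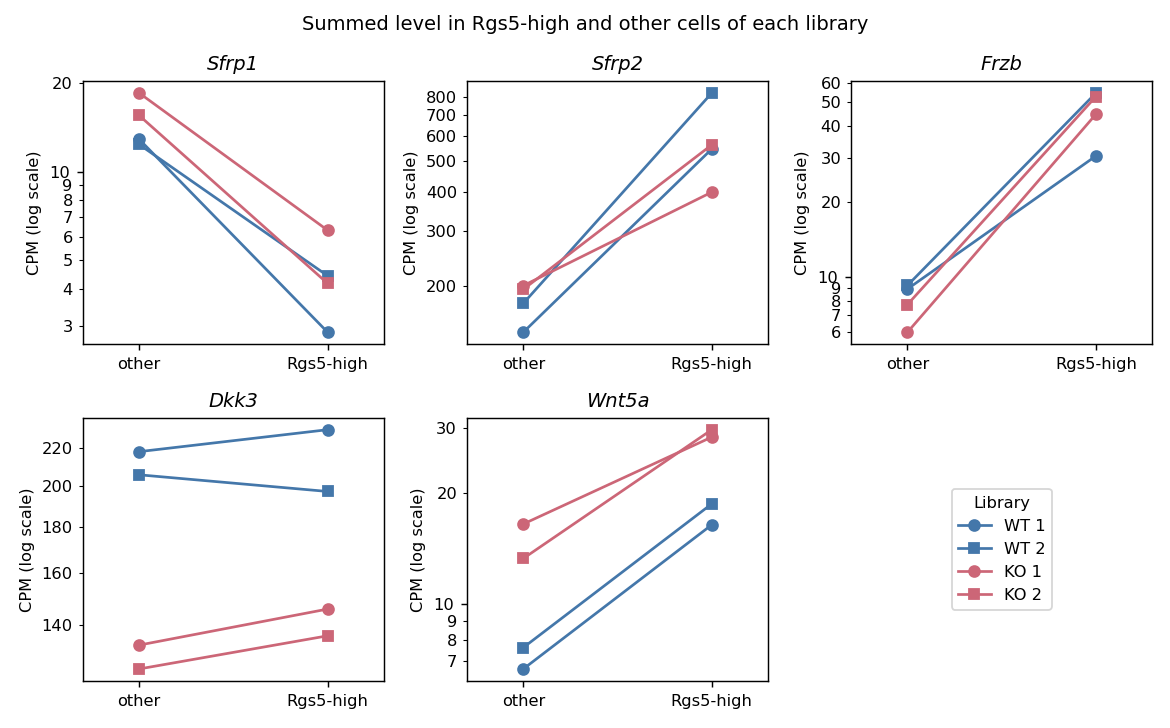
CPM (log scale) of the 5 tested members in Rgs5-high cells and in the other cells, with 1 line per library joining its 2 sums. The lines of Frzb, Sfrp2 and Wnt5a rise toward Rgs5-high cells in each library, those of Sfrp1 fall, and those of Dkk3 differ by 0.958 to 1.10 times between the classes.

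Other cell type genes moved with this division. The smooth muscle marker sum was 35400 to 40289 CPM in Rgs5-high cells and 47736 to 54594 CPM in the others. The 7 fibroblast genes summed to 18.7, 23.3, 27.1 and 32.4 CPM in the Rgs5-high cells, in the order WT 1, WT 2, KO 1, KO 2, against 7.89, 8.84, 13.9 and 18.1 CPM in the others. Of the 7, Pdgfra, Pi16 and Scara5 were higher in the Rgs5-high cells of each library. Clec3b and Ly6a were lower in each, though at few UMIs, and Cd34 and Dpt were mixed. In the same order of libraries, Clec3b held 2, 0, 0 and 2 UMIs in the Rgs5-high cells against 14, 21, 5 and 19 in the others. Ly6a held 0, 0, 3 and 0 UMIs against 1, 8, 99 and 73. The 12-gene fibroblast list, mostly Mfap5, Col14a1 and Tnxb, summed to 737 to 1399 CPM against 437 to 679 CPM. Mfap5 and Col14a1 were higher in each library, whereas Tnxb was lower, with 53.1, 41.9, 17.1 and 12.6 CPM against 118, 107, 35.2 and 40.1 CPM. The 8 pericyte markers other than Rgs5 summed to 648 to 728 CPM against 568 to 703 CPM, and the pericyte gene Higd1b was at 0 in all libraries. Kcnj8, a potassium channel gene on that list, stood at 54.9, 62.8, 129 and 142 CPM in the Rgs5-high cells, in the order WT 1, WT 2, KO 1, KO 2, against 31.0, 28.2, 61.8 and 48.5 CPM in the others (log2 difference 1.18, adjusted p = 7.56e-07). Notch3, on the same list, went the other way, with 17.6, 12.9, 22.9 and 12.8 CPM against 32.6, 26.3, 38.1 and 37.3 CPM. Cspg4 was also lower in the Rgs5-high cells of each library, Abcc9 was higher in each, and Cox4i2 and Pdgfrb were mixed. Without cells that held 2 of the 7 fibroblast genes, the differences were close to those above: 2.45 for Frzb, 1.65 for Sfrp2, 1.04 for Wnt5a and −1.63 for Sfrp1. Without cells that held 2 of the 12, the Wnt5a difference was 0.47 and not called (adjusted p = 0.274). The part of the lower smooth muscle marker sum and of Kcnj8 was not tested.

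The levels of Frzb, Sfrp2, Wnt5a and Sfrp1 also followed the amount of Rgs5, given here as a description in CPM of the thinned counts. Single steps could go the other way. From 0 to 1 Rgs5 UMI in WT 1, Frzb went from 8.45 to 7.84 CPM and Wnt5a from 6.07 to 4.90 CPM. From cells with no Rgs5 UMI to cells with at least 10, Frzb went from 8.45 to 91.6 CPM in WT 1, from 8.87 to 107 in WT 2, from 5.06 to 143 in KO 1 and from 6.86 to 76.1 in KO 2. Only in KO 2 did its highest value fall in the bin below the top, at 81.3 for 5 to 9 Rgs5 UMIs. Sfrp1 was at 0 in the top bin of WT 1 and KO 1, which hold 83 and 46 cells, and those counts allow up to 7.23 and 13.0 CPM. The top bins of WT 2 and KO 2, with 199 and 142 cells, held 1 Sfrp1 UMI each. Sfrp2 went from 123 to 916 CPM in WT 1, from 155 to 1244 in WT 2 and from 183 to 757 in KO 1. In KO 2 it went from 171 to 733 CPM at 5 to 9 Rgs5 UMIs and then to 566 in the top bin. Wnt5a, at 6.07 to 15.8 CPM in cells with no Rgs5 UMI, reached 26.1 to 69.6 CPM in the top bin, from 14 to 30 UMIs per library. Dkk3 had no direction common to all libraries. Between the same end bins it went from 200 to 222 CPM in WT 1 and from 190 to 168 in WT 2. In KO 1 it went from 124 to 187 CPM and in KO 2 from 123 to 186.

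**Figure D3:**
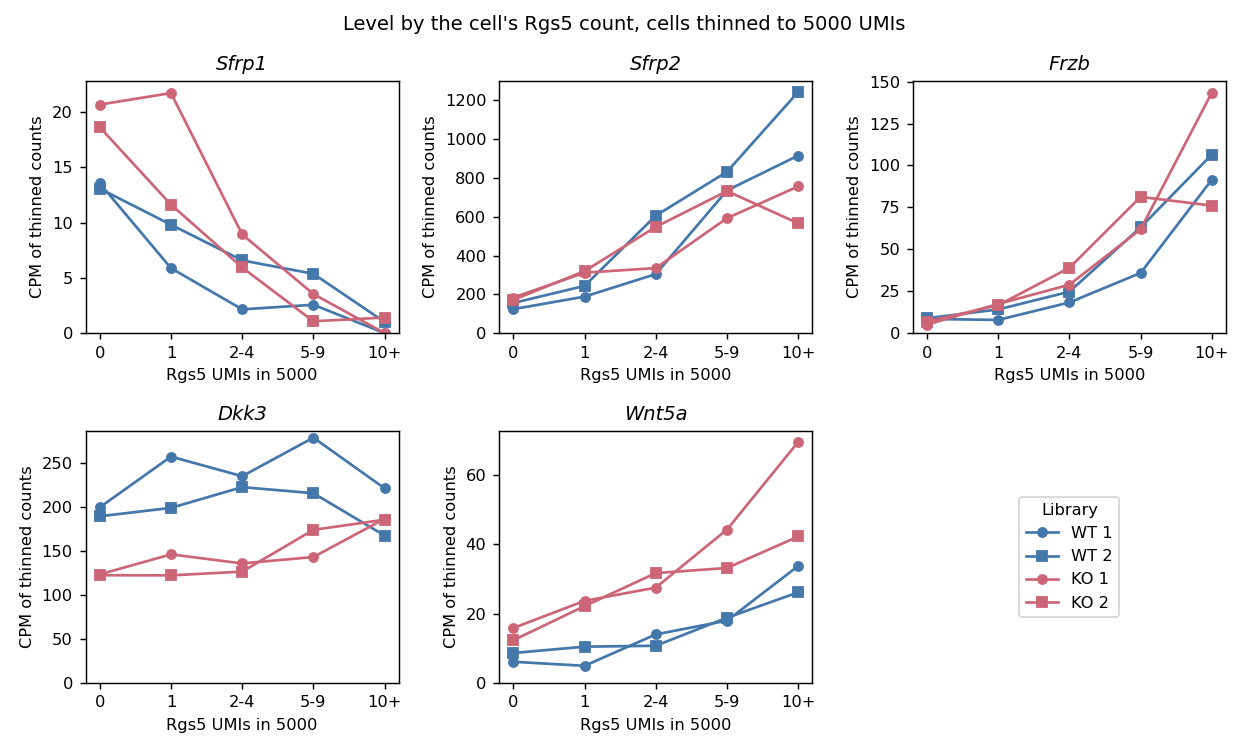
Mean level in CPM of the 5 tested members (vertical axes, from 0) in cells binned by their Rgs5 UMIs at the common depth (horizontal axis), with 1 line per library. Frzb reaches 76.1 to 143 CPM among cells with at least 10 Rgs5 UMIs, and Sfrp1 is at 0 there in WT 1 and KO 1.

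The effect of the Rgs5-high class on Sfrp2 differed between the genotypes. Rgs5-high cells held 3.83 and 4.67 times the Sfrp2 level of the others in WT, and 1.98 and 2.88 times in KO, without overlap. The test of that difference gave −0.82 on the log2 scale (SE 0.13, 95% interval −1.09 to −0.56, adjusted p = 0.00479), where 0.474% of 13088 genes were called, 0.153% higher and 0.321% lower. Values under the alternatives run for it lay between −1.10 and −0.56, and each was called. Sfrp2 was the one member called here, since the differences were 0.58 for Frzb (adjusted p = 0.276), −0.00 for Sfrp1 (0.999), 0.12 for Dkk3 (0.749) and −0.31 for Wnt5a (0.646). With the limit raised to at least 10 Rgs5 UMIs, Dkk3 was called as well, at 0.59 (adjusted p = 0.00846). Frzb was called with no expression filter (0.57, adjusted p = 0.00681), without WT 2 (1.06) and without KO 2 (0.65). Rgs5 set the division, so it is given no test. It stood at 757 and 1179 CPM in Rgs5-high cells of KO, against 1206 and 1603 CPM in those of WT. The part of this gap in the Sfrp2 result was not tested.

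The share of Sfrp2-positive cells overlapped between genotypes among Rgs5-high cells but not among the others. At least 1 Sfrp2 UMI was found in 59.4% and 70.9% of Rgs5-high cells of WT, and in 60.4% and 72.6% of those of KO. At least 5 were found in 18.4% and 32.5% of Rgs5-high cells of WT, against 15.6% and 21.8% of those of KO, again with overlap. Among the other cells, at least 1 was found in 31.5% and 37.4% in WT and in 42.6% and 40.1% in KO.

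**Figure D4:**
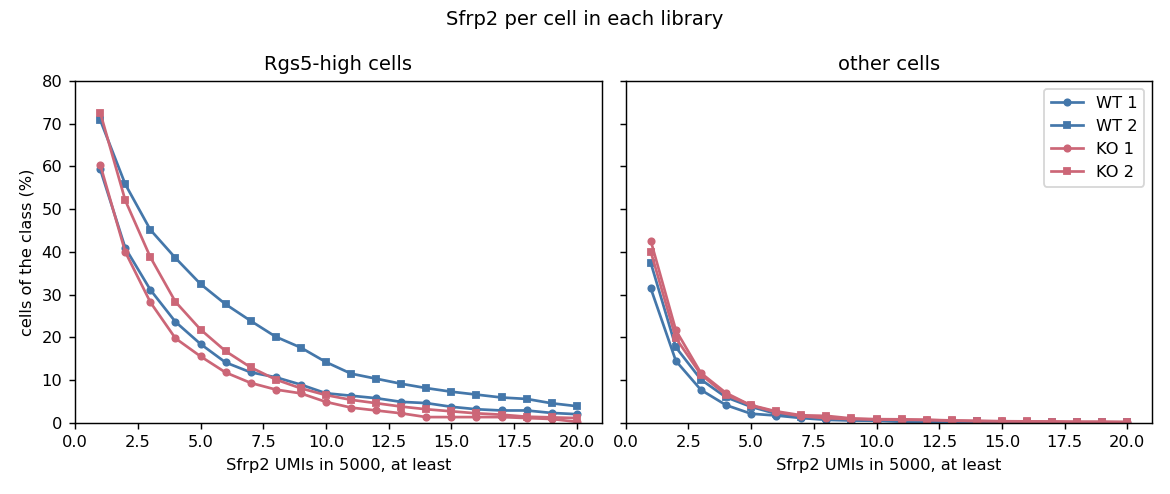
Share of cells of a class (vertical axis, percent) that held at least a given number of Sfrp2 UMIs (horizontal axis) after thinning to 5000 UMIs, for Rgs5-high cells on the left and other cells on the right, with 1 line per library. At 5 or more UMIs the Rgs5-high cells lie between 15.6% and 32.5% and the other cells between 2.12% and 4.12%.

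Split by class, the genotype difference of Sfrp2 had opposite signs. It was −0.51 in Rgs5-high cells (adjusted p = 0.0888, not called). There it was −0.78 without WT 1, −0.18 without WT 2, −0.29 without KO 1 and −0.78 without KO 2. In the other cells the genotype difference of Sfrp2 was 0.29 (adjusted p = 0.0455), a call lost without WT 1 (0.14). Dkk3 was lower in KO in both classes, with −0.60 (adjusted p = 0.00189) in Rgs5-high cells and −0.74 (adjusted p = 4.58e-05) in the others. Wnt5a was higher in both, with 0.71 (adjusted p = 0.00387) and 1.03 (adjusted p = 0.000361). Sfrp1 was called in the other cells (0.41, adjusted p = 0.0222), a call lost without WT 1 (adjusted p = 0.0697), WT 2 (0.102) or KO 1 (0.148), and gave 0.44 in Rgs5-high cells (adjusted p = 0.479). Frzb was lower in the other cells of KO (−0.43, adjusted p = 0.0492), a call lost without WT 1, WT 2 or KO 1, and gave 0.17 in Rgs5-high cells (adjusted p = 0.684). Over all genes, 11.6% were called in Rgs5-high cells (4.74% higher, 6.91% lower) and 22.8% in the others (10.7% higher, 12.1% lower).

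The promoters of Sfrp2 and Rgs5 are shown because the genes were counted in the same cells. They are the 250 bases before each start, from RefSeq on GRCm38.p6, 5′ to 3′ on the plus strand, at chr3:83766071-83766320 for Sfrp2 and chr1:169655251-169655500 for Rgs5. Capitals mark matches to the core letters of the SMAD site (CAGAC or its reverse GTCTG) and of the TCF and LEF site (CAAAG or CTTTG).
Sfrp2: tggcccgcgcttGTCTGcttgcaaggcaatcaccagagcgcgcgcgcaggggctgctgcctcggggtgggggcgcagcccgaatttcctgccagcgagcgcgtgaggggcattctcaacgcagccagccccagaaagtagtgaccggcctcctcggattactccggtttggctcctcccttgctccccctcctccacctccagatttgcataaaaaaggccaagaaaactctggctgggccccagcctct
Rgs5: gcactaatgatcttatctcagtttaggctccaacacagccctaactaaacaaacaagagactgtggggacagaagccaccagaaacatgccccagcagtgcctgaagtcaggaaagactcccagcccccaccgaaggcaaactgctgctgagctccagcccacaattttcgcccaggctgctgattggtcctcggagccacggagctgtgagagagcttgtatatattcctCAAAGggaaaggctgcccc
Sfrp2 held 1 GTCTG, 238 bases before its start, and no TCF and LEF core. Rgs5 held 1 CAAAG, 19 bases before its start, and no SMAD core. Of 32851 promoter windows of this length, 48.6% held the TCF and LEF core and 42.2% the SMAD core. A match to so short a motif is a description and not a binding site. Neither window held a CArG box, the element bound by serum response factor, which 1.47% of windows held.

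By the mean of the 4 within-library correlations, the member whose counts were most like those of Rgs5 was Sfrp2 (0.34), followed by Frzb (0.28). This is a description over 2232 to 4102 cells that share a library and its depth. Sfrp2 ranged from 0.21 to 0.44 between libraries, and in KO 1 Frzb stood above it (0.25 against 0.21). Of the genes with at least 20 CPM, Adamtsl1, a secreted protein related to the ADAMTS proteases, had the highest value with Frzb (0.35) and also stood high with Sfrp2 (0.33). Sfrp2 counts were most like those of Gm26771 (0.49), an antisense gene that overlaps the 3′ end of Sfrp2 by 464 bases, at chr3:83773853-83774316. How strand was used in counting is not given in the sources used here, and the part of the shared bases in this value was not tested. The lowest values were with Tagln, a contractile gene, for Frzb (−0.24) and Gm13889 for Sfrp2 (−0.25). Sfrp1, Dkk3, Wnt5a and Wnt11 had no gene above 0.14, and nothing was read from correlations this weak. Frzb was found in 6.26% and 12.5% of the Sfrp2-positive cells of WT and in 3.98% and 4.13% of the Sfrp2-negative ones. In KO it was found in 5.25% and 10.3% against 3.12% and 3.88%.

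Of 104 other Wnt pathway genes in 8 lists, 76 could be tested between genotypes, 14 rose and 15 fell in KO, where 9.17% of all tested genes were called higher and 11.1% lower, and their median log2 difference was −0.06 against −0.00 for all genes. Of 5 tested ligands, Wnt4 rose (1.20 and 1.40 CPM in WT, 3.20 and 2.61 in KO, log2 difference 1.15) and Wnt9a fell, from 10.2 and 9.14 CPM to 4.97 and 4.65 CPM. Of 8 tested secreted modulators, 3 rose and 2 fell. Igfbp4, an IGF-binding protein that can also oppose Wnt receptors, went from 45.4 and 40.0 CPM to 96.9 and 99.7 CPM. Draxin, with 1 and 6 UMIs in WT and 60 and 46 in KO, and the R-spondin Rspo3 also rose. The Wnt-binding inhibitor Wif1 fell from 167 and 202 CPM to 62.6 and 60.8 CPM, and Sost, which blocks Lrp5 and Lrp6, from 1763 and 1553 CPM to 924 and 811 CPM. Wif1 and Sost, like Dkk3, were lower in both KO libraries than in either WT library.

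Of 19 tested receptors and co-receptors, 7 fell (Lgr6, Mcam, Lrp5, Fzd1, Fzd8, Fzd2 and Fzd4) and 2 rose (Fzd3 and Fzd9). Mcam, a cell adhesion molecule that can bind Wnt5a, fell from 426 and 344 CPM to 188 and 188 CPM. Of 20 genes that transduce beta-catenin signals, Bcl9 rose, and Ctnnb1, which codes for beta-catenin, Bcl9l, Tcf7l1 and Tcf7l2 fell. Ctnnb1 went from 258 and 252 CPM to 173 and 173 CPM. Of 11 target and feedback genes, Myc, Ccn4, Nkd2, Ccnd1 and Tnfrsf19 rose and Apcdd1 fell. The target most used as a readout of the beta-catenin branch, Axin2, stood at 3.81 and 4.61 CPM in WT and at 3.64 and 3.71 CPM in KO. Axin2 did not pass the test. Of 13 genes of the planar cell polarity branch, the small GTPase gene Rhou (log2 difference 1.09) and Invs (0.42) rose. None of the 2 genes for Wnt secretion and the 1 tested gene for receptor turnover passed.

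**Figure D5:**
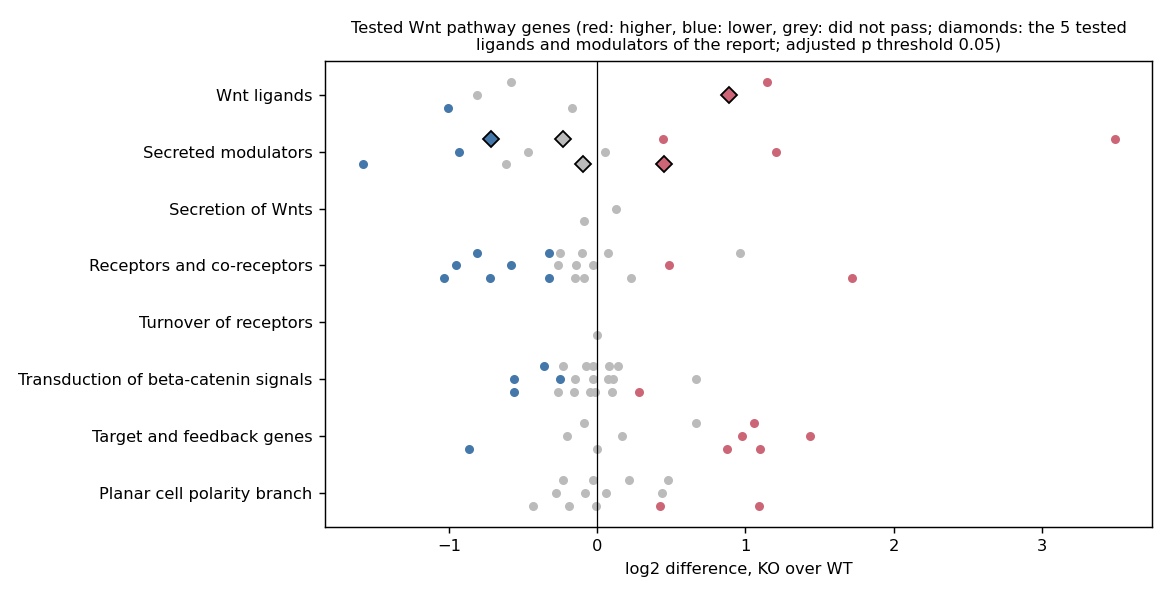
Log2 difference of KO over WT (horizontal axis) of each tested gene of the 8 Wnt lists (rows), in red where it was called higher, in blue where it was called lower and in grey where it did not pass, with black-edged diamonds for the 5 tested members. Of the 76 other genes, 14 were called higher and 15 lower.

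Between Rgs5-high and other cells, 71 of these genes were tested, 21 rose and 13 fell, where 10.7% of all tested genes were called higher and 12.4% lower, with a median of 0.07 against 0.00 for all genes. Ror2, the receptor named above for Wnt5a, stood at 2.67 and 5.59 CPM in Rgs5-high cells of WT against 0.107 and 0.184 CPM, and at 4.91 and 9.29 CPM against 0.729 and 0.812 CPM in KO (log2 difference 3.62). Among 4 ligands, Wnt5b (2.23) and Wnt4 (0.67) rose and Wnt16 (−1.07) fell. Among 6 modulators, Sfrp4 (1.66) and Rspo3 rose and Igfbp4 (−0.74) and Wif1 (−0.21) fell. Of 18 receptors and co-receptors 7 rose and 6 fell, among the latter Fzd7 (−0.49) and Mcam (−0.40). Of 20 transduction genes 5 rose, Tcf7 among them at 1.29, and none fell. Of 9 target and feedback genes, Axin2 (0.70), Tcf7 and Znrf3 (0.39) rose and Nkd1 (−0.21), Myc and Ccn4 fell. Of 13 polarity genes, Vangl2 (1.72), Daam2 (1.20) and Rhou (0.65) rose and Daam1 fell.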

How the data were processed

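Single-cell RNA libraries were made with 3′ chemistry v3.1 per the labels' protocols. The authors deposited raw UMI counts for each gene in each barcode, and the file headers name Cell Ranger 5.0.1. The build is mm10 and Seurat 4.0 was used per the submitters' processing notes.

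From these, 13468 of 14696 barcodes were kept (at least 1000 UMIs and 500 genes, at most 10% mitochondrial UMIs). No doublets were removed and no clustering was done. Counts were summed per library, scaled by TMM and compared with edgeR 4.0.16 (R 4.3.3), its quasi-likelihood test and default expression filter, with Benjamini-Hochberg adjustment over all tested genes at 0.05. Every adjusted p comes from this test. CPM are on the TMM scale, and log2 differences are KO minus WT or Rgs5-high minus other. The biological coefficient of variation was 7.84%.

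For shares and classes, cells of at least 5000 UMIs, 12790 in all, were thinned to 5000 UMIs with a fixed seed. The Rgs5 limit was the smallest count that at most 20% of cells reached, with libraries weighted equally. Class sums used all UMIs and were compared with library as a term. Positions are from GENCODE M21.

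The members, gene lists and rules were chosen with earlier results of these data known. Named were the members, Rgs5, Tgfbr1, Tgfbr2, at most 5 called genes per Wnt list between genotypes and 3 between Rgs5 classes by smallest p, and per member the 3 genes most alike and the 1 least alike. Some genes were added after their values were seen: Axin2 between genotypes, Higd1b, Kcnj8, tdTomato, further called members of lists, and the background genes. So were the other pericyte and fibroblast genes described singly. The narrower list of 7 fibroblast genes (Pdgfra, Dpt, Pi16, Scara5, Clec3b, Cd34 and Ly6a) was chosen after seeing the data, because the 12-gene list holds genes that these smooth muscle cells express. Alternatives were DESeq2 1.42.0, other filters, thinning depths, Rgs5 limits, a replicate block, and leaving out cells or libraries. A test on simulated counts followed the fits and took its dispersions from them.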

Additional observations from a re-analysis of the deposited data

Results flagged for a closer look

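The effect of the Rgs5-high class on Sfrp2 differed between the genotypes by the test of that difference itself: −0.82 on the log2 scale, KO minus WT (edgeR's quasi-likelihood test, adjusted p = 0.00479). The log2 ratios of Rgs5-high to other cells were 1.94 (WT 1), 2.22 (WT 2), 0.99 (KO 1) and 1.53 (KO 2). Each KO library lay below both WT libraries. Groups of 2 libraries are too small for a test of outlying samples.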

How the results depend on the processing

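Wnt5a and Dkk3 kept their direction and call in KO against WT in each alternative run, and Frzb, Sfrp2 and Sfrp1 kept theirs in Rgs5-high cells. Of all results and settings, 408 stayed, 40 moved, 12 reversed, 12 passed the threshold anew and 15 lost it, and no cause was tested unless named. The 408 include the runs with the upper 20% of each library. Their limit was 2 Rgs5 UMIs in each library, as in the main run, so they could not differ from it. Leaving out cells with 2 of 12 fibroblast genes removed most cells, since these cells express several of the genes. It gave −0.35 for Sfrp1 and 0.68 for Sfrp2 (adjusted p = 8.5e-05) between genotypes, 0.47 for Wnt5a between classes, 860 genes higher between genotypes, 232 higher and 249 lower between classes, and 6 (genotypes), 3 and 3 (classes) called Wnt genes. The 7-gene list gave 0.37 for Sfrp1, as did leaving out the deepest cells. A minimum of 20 CPM left 625 genes higher and 918 lower and 2 Wnt genes higher. DESeq2 called 9 Wnt genes higher between genotypes and 13 between classes.

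Leaving out 1 library at a time gave 805 to 1161 genes higher and 1039 to 1297 lower between genotypes, 0.25 to 0.63 for Sfrp1, −0.34 to 0.20 for Sfrp2, −0.59 to 0.071 for Frzb, and 8 to 11 Wnt genes higher. Between classes it gave 1071 to 1493 genes lower and 13 to 22 Wnt genes higher. In Rgs5-high cells it gave −0.78 to −0.18 for Sfrp2 and −0.16 to 0.68 for Frzb. In the other cells it gave 830 to 1464 genes higher, 1103 to 1625 lower, 0.28 to 0.53 for Sfrp1, 0.14 to 0.45 for Sfrp2 and −0.62 to −0.25 for Frzb. For the difference of the class effect it gave 12 to 117 genes higher, 40 to 266 lower, −0.24 to 0.45 for Sfrp1 and 0.28 to 1.06 for Frzb. A lone library is assumed to vary like the other group.

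For the difference of the class effect, 77 genes were higher and 192 lower with no expression filter, 54 and 95 with the upper 10% of cells, 64 and 99 with a limit of 10 UMIs, and 55 and 90 with at least 10 UMIs against none. Over the last 3 settings Sfrp1 gave 0.53, 0.059 and 0.015. Frzb gave 0.57 with no filter, and Dkk3 0.59 and 0.55 with the settings of 10 UMIs. In Rgs5-high cells Sfrp2 was called with no filter (−0.52) and with the upper 10% of cells (−0.58). In the other cells the upper 10% gave 0.24 for Sfrp2 and −0.24 for Frzb. Detection differences, in percentage points, were −10.2 without thinning for Dkk3, 6.60 (10000 UMIs) and 7.93 (no thinning) for Wnt5a, and 0.0766 and 0.0445 for Wnt11.

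Deviations of same-numbered libraries from their group means correlated at −0.00472 over 5743 genes, and the main test used no pairing. This correlation takes these genes together and does not exclude an order shared by single genes, such as Sfrp2, Rgs5 and Adamtsl1. With the replicate block, 1523 genes were higher and 1751 lower between genotypes, and in Rgs5-high cells 946 were higher and Sfrp2 was called at −0.51. Depth limits Wnt11, with at most 7 UMIs per library.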

Other observations

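Among the ligands that are no members, Wnt16 was the most counted, with 118 and 125 CPM in WT, against 112 and 105 CPM in KO. Wnt16 stood at 79.0 and 76.5 CPM in Rgs5-high cells of WT against 130 and 142 CPM in the others, and at 64.1 and 36.3 CPM against 123 and 126 CPM in KO. Wnt5b, close kin of Wnt5a, stood at 9.27 and 10.8 CPM in Rgs5-high cells of WT against 2.04 and 2.28 CPM in the others, and at 6.01 and 8.46 CPM against 1.28 and 1.78 CPM in KO. The antisense gene Gm26771 stood at 41.0 and 63.6 CPM in WT and at 35.6 and 45.4 CPM in KO. Adamtsl1 stood at 9.34 and 22.3 CPM in WT and at 13.0 and 44.5 CPM in KO, so that the libraries numbered 1 lay below those numbered 2 in both genotypes, the order also seen for Sfrp2, Frzb and Rgs5.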
